A study of Saccharomyces cerevisiae with 8 samples.

Results

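Hexose transporters carry glucose into the yeast cell, and a small set of sensors and repressors decides which of them are made. The 10 genes described here are the transporters HXT1 to HXT7, the glucose sensors SNF3 and RGT2, and MTH1, a corepressor of the transporter genes. They were taken by their systematic names from the 11844 features of the series, of which 5942 are protein-coding. All 10 had a row in the table and at least 36 reads over the 8 libraries.

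The RNA came from the budding yeast strain BY4741, a laboratory haploid. Every group carried the markers MATa his3Δ1 leu2Δ0 met15Δ0 ura3Δ0, and the upf1 groups carried upf1::kanMX4 as well, a deletion of UPF1, the helicase of nonsense-mediated decay. Nonsense-mediated decay, or NMD, removes RNAs on which translation stops early. Cultures in YPD, a rich medium with glucose, were held at 30 °C and received cycloheximide (CHX, an inhibitor of translation elongation) at 100 µg/ml, or DMSO, its solvent, when the OD600 was 0.5. After 15 min the RNA was taken, and it was digested with Terminator, an exonuclease that degrades RNA ending in a 5′ monophosphate but leaves capped RNA intact, before stranded libraries were made. The 4 groups, WT DMSO, WT CHX, upf1 DMSO and upf1 CHX, had 2 biological replicates each. The labels do not say whether the upf1 cultures came from 1 clone.

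Between 1311215 and 5691460 reads per library were assigned to the listed features, and the median protein-coding gene held 7 to 101 of them. Values are scaled reads per kb, which are reads per base of the feature times a library factor set by the authors, times 1000. This is a measure per length, so levels of different genes can be set side by side. UPF1, listed as NAM7, stood lower in each upf1 library than in each WT library. With DMSO it had 5.94 and 2.80 in upf1 against 14.8 and 15.2 in WT. With CHX it had 13.5 and 10.1 in upf1 against 83.5 and 44.8 in WT. The upf1 libraries still held 25 and 10 of its reads with DMSO and 25 and 66 with CHX, the cause of which was not tested. STE2, the receptor gene of MATa cells, had at least 335 in every library, and STE3, its MATalpha counterpart, at most 26.6. HIS3 was read in every library, with 19 to 503 reads; his3Δ1 is known to remove only a part of the gene. Undigested libraries were not analysed here, so more RNA and a larger capped share of the RNA cannot be told apart, and in bulk RNA neither can fewer cells of a type and less RNA per cell. Protein-coding genes in general were higher with CHX on the deposited scale, by a median log2 change of 1.23 in WT, or 2.35-fold, and of 1.25 in upf1. The median gene was also higher in upf1 than in WT, by 0.51 in DMSO and by 0.58 in CHX. For this reason changes are given as deposited and relative to a common protein-coding median. Setting the libraries to that median took 1.31 off the CHX changes in WT and 1.37 off those in upf1. It took 0.63 off the upf1 changes in DMSO and 0.68 off those in CHX.

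The proteins form a known circuit. Rgt2 and Snf3 resemble transporters but act as receptors at the plasma membrane, Rgt2 for high and Snf3 for low glucose, and their signal leads to the destruction of Mth1 and its paralogue Std1. Mth1 and Std1 enable the repressor Rgt1 to hold HXT genes off, so glucose relieves that repression. A second repressor, Mig1, acts when glucose is plentiful and keeps genes such as HXT2, HXT4, HXT6, HXT7, SNF3 and MTH1 low. Hxt1 and Hxt3 are the low-affinity transporters used in high glucose. Hxt2, Hxt4, Hxt6 and Hxt7 have higher affinity and serve when glucose is scarce, and Hxt5 is made by slowly growing cells.

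Transporter genes are similar enough to share reads, and the closest pair is HXT6 and HXT7. Both lie on the minus strand of chromosome IV in the R64 genome, HXT6 at IV:1159608-1161320 and HXT7 at IV:1154216-1155928. Their coding sequences differed at 3 of 1713 bases, so they were 99.8% identical. All 3 differences fall in the stretch shown here from coding base 1632 to 1691, where capitals mark the bases that differ, since only reads over this stretch or over the flanks can tell the genes apart.
HXT6: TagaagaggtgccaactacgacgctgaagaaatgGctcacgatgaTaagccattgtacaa
HXT7: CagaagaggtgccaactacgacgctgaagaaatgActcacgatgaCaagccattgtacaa
The substitutions from HXT6 to HXT7 are T1632C, G1666A and T1677C, counted from 1 at the A of the start codon. Of the 1639 windows of 75 bases in either coding sequence, 1557 occurred in the other gene too, and 82 windows were unique to each. HXT3 shared 8.16% of its windows with other members, HXT1 2.75%, HXT5 2.64% and HXT4 0.241%, while HXT2, SNF3, RGT2 and MTH1 shared none. Neither the read length nor the handling of reads with several matches is given in the sources used here. The division of reads between HXT6 and HXT7 is therefore uncertain. If reads with several matches were dropped, the levels of both are understated. Their ranks, their shares and the sum over the transporters are then understated too. HXT6 and HXT7 each also shared 7.87% of their windows with HXT3, which had 19981 reads against their 59 and 350. If reads with several matches were kept, reads of HXT3 may overstate the levels of both, which was not tested. The feature lengths recovered for HXT6 and HXT7 equalled the coding length, while those of the other members ran 133 to 526 bases beyond it. Outside the coding part, the 50 bases before the start codons were identical and the 200 bases before them were 78.5% identical.

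The regions upstream of the genes carry different numbers of repressor words. Rgt1 binds the word CGGANNA, in which N is any base. The 800 bases before the start codon held 8 such words in HXT3, 6 in HXT1, 4 each in HXT5 and MTH1, 3 each in HXT2 and HXT4, 2 in HXT7, 1 in HXT6 and 0 in SNF3 and RGT2, counted on both strands. Of 5997 windows of that length before protein-coding genes of the genome, 58.3% held at least 1 word, 7.02% at least 3, 1.97% at least 4 and 0.183% at least 6. Stretches of 80 bases from 4 members show how the words lie in the low-affinity transporter genes HXT1 and HXT3, in HXT4 and in the corepressor gene. Sequences are from the RefSeq assembly R64, 5′ to 3′ on the coding strand, and capitals mark Rgt1 words on either strand (TTTTCCG is CGGAAAA read from the other strand).
HXT1 (VIII:293009-293088, minus strand): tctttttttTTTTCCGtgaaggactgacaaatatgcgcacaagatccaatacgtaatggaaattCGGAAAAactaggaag
HXT3 (IV:1165014-1165093, minus strand): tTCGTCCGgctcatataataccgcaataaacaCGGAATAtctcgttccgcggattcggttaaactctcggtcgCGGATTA
HXT4 (VIII:289065-289144, minus strand): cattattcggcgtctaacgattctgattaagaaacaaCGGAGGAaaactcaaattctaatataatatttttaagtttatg
MTH1 (IV:1016191-1016270, minus strand): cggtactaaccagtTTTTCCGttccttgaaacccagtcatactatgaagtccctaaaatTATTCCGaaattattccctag
Words of Mig1 were searched on both strands as CCGGGG, as CTGGGG, as GCGGGG and as GTGGGG. HXT2 and HXT4 held 4 of them, HXT6 and MTH1 3, HXT1, HXT3, HXT7 and SNF3 2, HXT5 1 and RGT2 0. Among all windows 35.8% held at least 1, 8.69% at least 2, 1.78% at least 3 and 0.484% at least 4. A word is a match of letters and not a measured binding site.

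**Figure D1:**
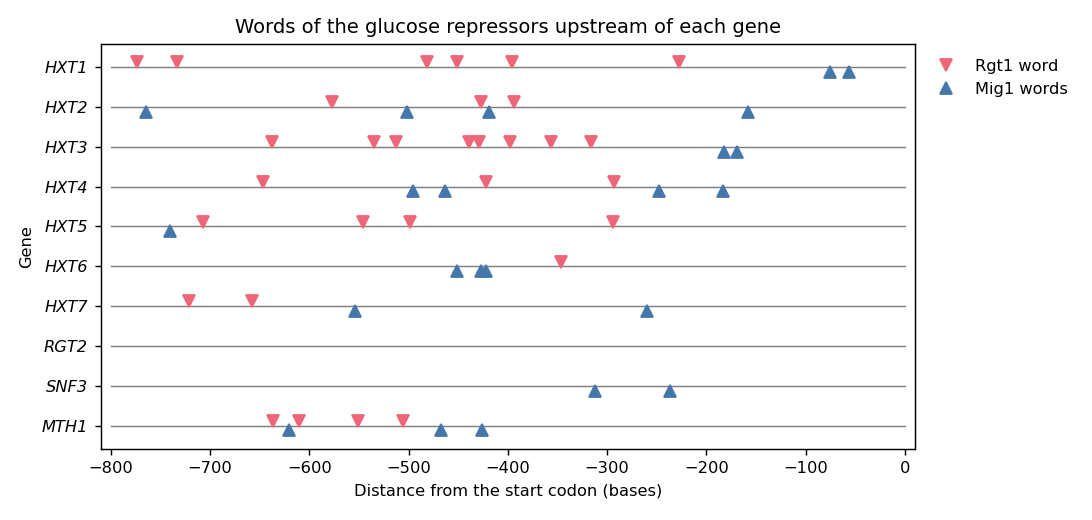
Positions of Rgt1 words (triangles pointing down) and Mig1 words (triangles pointing up) in the 800 bases before the start codon of each gene; the x axis is the distance from the start codon in bases. HXT3 carries 8 Rgt1 words and HXT1 6, and RGT2 carries neither kind.

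HXT3 (YDR345C, chromosome IV), a low-affinity transporter, was the most abundant member in every library. WT libraries gave 1239 and 962 with DMSO and 1804 and 1458 with CHX, and upf1 libraries 1104 and 979 with DMSO and 1108 and 977 with CHX. Both WT CHX libraries lay above all others, and the remaining groups overlapped. Among protein-coding genes HXT3 was at percentile 97.9 in WT DMSO and at percentile 95.1 in upf1 CHX.

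HXT1 (YHR094C, chromosome VIII, 290913 to 292625), the other low-affinity transporter, had 307 and 288 in WT with DMSO and 808 and 835 with CHX. In upf1 its levels were 414 and 457 in DMSO and 652 and 554 in CHX. The 4 groups did not overlap, with WT DMSO lowest and WT CHX highest. HXT1 ranked below HXT2 in WT DMSO and above it in the means of the other groups.

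HXT2 (YMR011W, chromosome XIII, 288079 to 289704), a transporter of higher affinity, took the opposite place. WT cells gave 631 and 447 with DMSO and 801 and 551 with CHX, while upf1 cells gave 401 and 342 with DMSO and 361 and 296 with CHX. Each upf1 library was below each WT library. The CHX and DMSO libraries of 1 genotype overlapped.

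HXT4 (YHR092C, chromosome VIII, 287081 to 288811), also of higher affinity, was read far less. WT cells gave 70.2 and 57.1 in DMSO and 62.9 and 46.7 in CHX, and upf1 cells gave 22.1 and 22.5 in DMSO and 28.5 and 23.1 in CHX. The genotypes did not overlap in either treatment. HXT4 stood at percentile 84.6 of protein-coding genes in WT DMSO and at percentile 63.6 in upf1 DMSO, by the group means.

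HXT7, a high-affinity transporter, had 54.0 and 23.3 in WT without CHX and 28.2 and 22.7 with it, and 16.0 and 9.46 in upf1 without CHX and 19.2 and 17.9 with it, from 350 reads in all. The first WT DMSO library stood apart from its replicate, and each upf1 library was below each WT library. HXT6, its near copy, had only 59 reads. Its DMSO libraries gave 6.55 and 0.971 for WT and 6.60 and 2.22 for upf1, and its CHX libraries 4.23 and 2.70 for WT and 3.21 and 3.64 for upf1. All 4 groups of HXT6 overlapped. HXT5 (YHR096C), the transporter of slow growth, had 36 reads in all and a mean of 1.63 scaled reads per kb. Without CHX it had 0.811 and 0.722 in WT and 1.05 and 0.827 in upf1, and with CHX 1.05 and 2.29 in WT and 3.18 and 3.15 in upf1. The upf1 CHX libraries were the highest. HXT5 was the only member below the filter of 2 scaled reads per kb and was not tested. Against 3 reads in the WT DMSO group, the 10 reads in WT CHX gave a scaled ratio of 2.38, with an exact 95% interval for counting error of 0.612 to 13.4.

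RGT2 (YDL138W, chromosome IV, 213351 to 215642), the receptor for high glucose, had the most reads of the regulators. DMSO libraries had 7.30 and 5.57 for WT and 8.41 and 5.32 for upf1, and CHX libraries had 39.5 and 30.4 for WT and 58.5 and 47.9 for upf1. Both CHX groups lay above both DMSO groups, and within DMSO the genotypes overlapped. Among protein-coding genes RGT2 was at percentile 47.6 in WT without CHX and 62.3 with it, and in upf1 at 35.9 without CHX and 60.8 with it.

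SNF3 (YDL194W, chromosome IV, 111580 to 114234), the receptor for low glucose, had 77 reads in all. WT gave 0.322 and 0 with DMSO against 6.24 and 3.18 with CHX, and upf1 gave 3.06 and 1.31 with DMSO against 1.89 and 5.18 with CHX. A count of 0 in the second WT DMSO library allows a level of up to 1.72 at 3 reads. WT DMSO lay below the other groups, and the upf1 CHX values overlapped those of WT CHX and of upf1 DMSO. The single read in WT DMSO against 29 in WT CHX gave a scaled ratio of 20.7, with an exact interval of 3.43 to 844, and against 15 in upf1 DMSO it gave 11.0 (interval 1.69 to 461).

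MTH1 (YDR277C, chromosome IV, 1014401 to 1015702), the corepressor that works with Rgt1, had 51 reads. In DMSO it was read at 0.554 and 0.985 in WT and at 1.91 and 3.38 in upf1, and in CHX at 4.29 and 2.34 in WT and at 7.59 and 6.15 in upf1. The WT libraries with DMSO were lowest and the upf1 libraries with CHX highest, without overlap, and the groups between them overlapped each other. Of the WT DMSO group only 2 reads were from MTH1, so the ratio of WT CHX to it was 4.28, with an exact interval of 0.952 to 39.4, and that of upf1 DMSO was 3.65, with an interval of 0.778 to 34.3. Intervals here cover counting error only.

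In WT DMSO the order of levels per length was HXT3, HXT2, HXT1, HXT4, HXT7, RGT2, HXT6, MTH1, HXT5 and SNF3. The replicate values of neighbours overlapped for RGT2 and HXT6, HXT6 and MTH1, and MTH1 and HXT5, while those of the other neighbours were apart. The first 5 are transporters, and the sensors and the corepressor stood far below them: HXT3 exceeded RGT2 by 170 and 173 times in the WT DMSO libraries. With CHX that ratio was 45.6 and 47.9 in WT, and 18.9 and 20.4 in upf1, against 131 and 184 in upf1 DMSO. These ratios are taken within a library and do not depend on its factor.

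**Figure D2:**
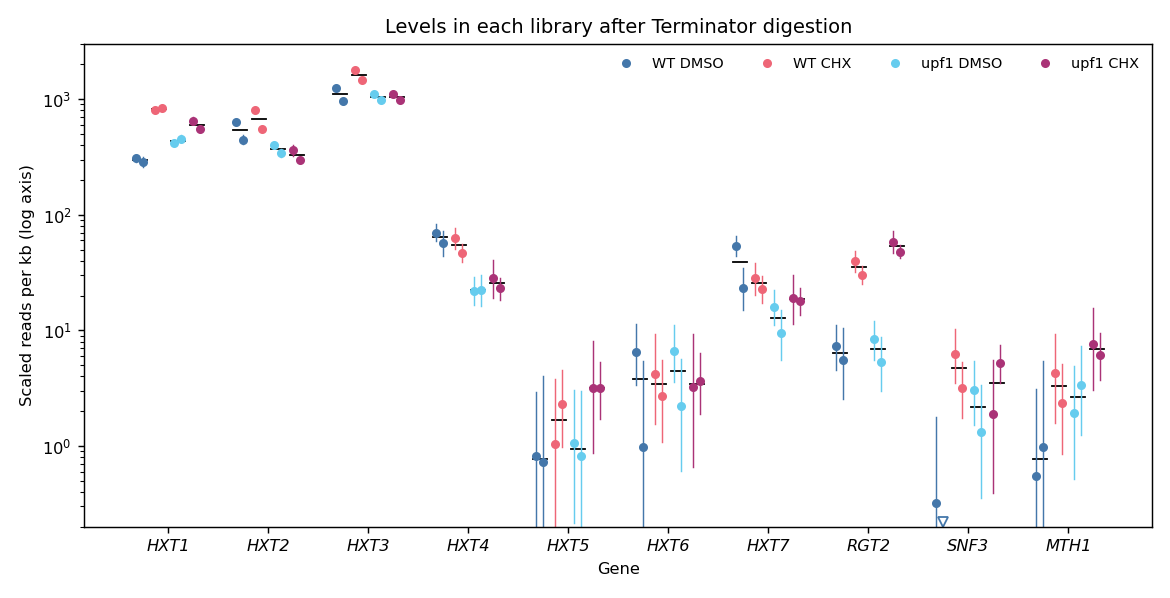
Level of each gene in every library, in scaled reads per kb on a log axis, by group; points are libraries, vertical lines exact 95% counting intervals, drawn from 0.2 upward, horizontal lines group means, and the open triangle at the lower edge a library with 0 reads. HXT3 is highest throughout, the RGT2 libraries with CHX (30.4 to 58.5) lie above those with DMSO (5.32 to 8.41), and the upf1 libraries of HXT4 (22.1 to 28.5) lie below those of WT (46.7 to 70.2).

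Within the 7 transporters, HXT1 took a larger share and HXT2 and HXT4 smaller ones in every other group than in WT DMSO. In upf1 the HXT4 share was not smaller with CHX than with DMSO. Shares of a library add up to a whole, so a larger share of 1 gene means less for the rest. HXT3 held 53.9% ± 0.319 (SD, n = 2) of the summed density in WT DMSO and between 50.7% ± 1.01 (WT CHX) and 55.1% ± 1.52 (upf1 DMSO) elsewhere, so its share ranged little. The HXT1 share was 14.7% ± 2.02 and 25.8% ± 3.94 in WT without and with CHX, and 23.1% ± 2.89 and 29.7% ± 0.311 in upf1. HXT2 went the other way, with 26.2% ± 1.57, 20.8% ± 2.79, 19.6% ± 1.09 and 16.2% ± 0.572 in the same order of groups. HXT4 had 3.13% ± 0.12, 1.70% ± 0.136, 1.18% ± 0.0819 and 1.27% ± 0.054, again in that order. WT DMSO was the group with the smallest HXT1 share and the largest HXT2 and HXT4 shares, in both of its libraries. HXT7 had 1.83% ± 0.728 in WT DMSO and 0.669% to 0.919% in the other groups, and HXT5 and HXT6 each had a group mean of 0.229% or less. The shares are given as a description, with no test.

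**Figure D3:**
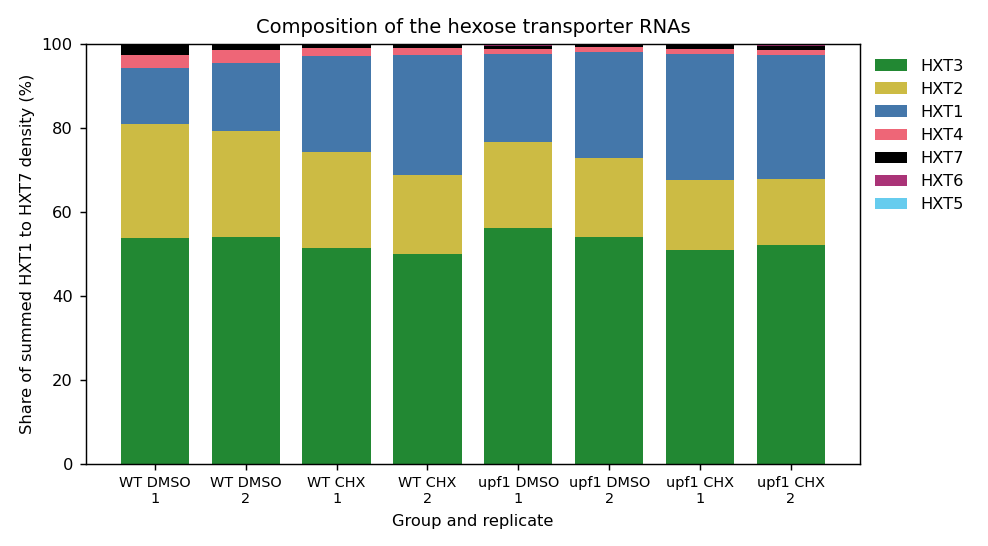
Share of each transporter gene in the summed density of HXT1 to HXT7, in percent, for each library (1 bar per library, by group and replicate). HXT3 takes about the same part of every bar (50.7% to 55.1% by group), and the HXT1 part is smallest in the WT DMSO libraries (14.7%) and largest in those of upf1 CHX (29.7%).

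The ratio of HXT1 to HXT4 puts a low-affinity and a higher-affinity transporter side by side in each library. In WT it was 4.38 and 5.03 with DMSO and 12.8 and 17.9 with CHX, and in upf1 it was 18.7 and 20.3 with DMSO and 22.9 and 23.9 with CHX. The 4 groups did not overlap. All 7 transporters together held 0.329% ± 0.0546 of the reads of protein-coding genes in WT without CHX and 0.283% ± 0.0145 with it, against 0.285% ± 0.0219 and 0.176% ± 0.00349 in upf1. Both upf1 CHX libraries, at 0.178% and 0.173%, lay below the other 6, which ran from 0.269% to 0.367%.

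How a short block of translation changed digested RNA levels in WT was tested first. HXT1, HXT3 and both sensors, RGT2 and SNF3, were higher with CHX on the deposited scale, 4 of 9 members tested by limma, where 68.4% of protein-coding genes were higher. No member was lower, and 0 were lower at an unadjusted p under 0.05 or by voom. The share among the members was thus below that of the genes in general. SNF3 is among the 4, though it passed the filter through the groups other than WT DMSO, as described below. RGT2 rose by 2.13 ± 0.301 on the log2 scale (limma adjusted p = 0.00119), which is 0.82 relative to the protein-coding median and did not pass there (adjusted p = 0.0872). HXT1 rose by 1.46 ± 0.165 (limma adjusted p = 0.000658), close to the median gene, since its relative change was 0.15. HXT3 rose by 0.57 ± 0.191 as deposited (limma adjusted p = 0.0295), but had a relative value of -0.74 (adjusted p = 0.0558). SNF3 rose by 1.60 ± 0.461 (limma adjusted p = 0.0167), with a relative value of 0.29 that became -0.064 with quantile normalization.

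MTH1 had a change of 0.92 ± 0.367 as deposited (limma adjusted p = 0.0536) and of -0.39 relative to the median. As deposited it passed by voom (1.60, adjusted p = 0.0437), with a halved pseudocount, with no filter, with protein-coding genes only and without the second WT CHX library. HXT6, the near copy of HXT7, was at 0.10 ± 0.569 as deposited and -1.21 relative to the median. The median change over the 9 members was 0.57, against 1.23 over protein-coding genes. HXT2 was at 0.32 ± 0.257 (limma adjusted p = 0.278), HXT4 at -0.22 ± 0.256 and HXT7 at -0.46 ± 0.415, and none of these passed. Relative to the protein-coding median these 3 transporters of higher affinity were the members called, all lower, where 3.94% of protein-coding genes were lower. HXT4 had a relative change of -1.52 (limma adjusted p = 0.0124), HXT7 one of -1.77 (adjusted p = 0.0377) and HXT2 one of -0.99 (adjusted p = 0.0426). SNF3 and MTH1 entered the test through the groups other than WT DMSO, where their means were 0.161 and 0.769. Both therefore had to differ from WT DMSO to some degree. The HXT3 call ended without the second WT DMSO library (0.39) or the first WT CHX library (0.42), and the SNF3 call without either WT DMSO library or the first WT CHX library (1.26 to 1.71). Without the second WT DMSO library HXT7 was called lower also as deposited, at -1.04 (adjusted p = 0.0471). The relative calls of HXT4 and HXT7 ended without either WT CHX library, that of HXT7 without any upf1 library as well, and that of HXT2 without any library other than the second WT DMSO library.

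In cells without UPF1 the same treatment was tested next. As deposited RGT2 and HXT1 rose, 2 of 9 members, where 73.9% of protein-coding genes were higher, and 0 were lower by limma, by voom or at an unadjusted p under 0.05. RGT2 rose by 2.65 ± 0.301 (limma adjusted p = 0.00187), a 6.30-fold change on that scale, and it was the 1 member higher also relative to the protein-coding median, at 1.29 (adjusted p = 0.0458), where 1.52% of protein-coding genes were higher. HXT1 rose by 0.46 ± 0.165 as deposited (limma adjusted p = 0.0398), while its relative value was -0.90. Its call ended when any WT DMSO, upf1 DMSO or upf1 CHX library was left out. HXT3 had a change of 0.0010 ± 0.191 as deposited (limma adjusted p = 0.999) but was lower relative to the median, at -1.37 (adjusted p = 0.0161). HXT2 was at -0.18 ± 0.257 as deposited and lower at a relative -1.55 (adjusted p = 0.0198). Lower calls of this kind covered 1.77% of protein-coding genes. MTH1 had 0.94 ± 0.367 (limma adjusted p = 0.0529), with a relative value of -0.42. As deposited it passed by voom (1.30, adjusted p = 0.0328), with a pseudocount 5 times as large, with no filter, with protein-coding genes only and without either WT CHX library. SNF3 was at 0.37 ± 0.461 as deposited and -0.998 relative to the median, and HXT4, HXT6 and HXT7 were at 0.19, -0.15 and 0.52 as deposited and at -1.18, -1.52 and -0.85 relative to it, with no call. The median of the 9 members was 0.37, against 1.25 over protein-coding genes. The relative calls of HXT2, HXT3 and RGT2 ended without any 1 of the upf1 libraries, and that of RGT2 without either WT CHX library as well.

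Loss of UPF1 was compared with WT in DMSO. HXT4 fell by 1.43 ± 0.256 on the log2 scale (limma adjusted p = 0.0137), or 2.69-fold on that scale, and was the only member called; 0.253% of protein-coding genes were lower and 13.1% higher. No member was higher, with 3 of 9 at an unadjusted p under 0.05 in either direction and 0 higher by voom. Relative to the protein-coding median the HXT4 change was -2.05 (limma adjusted p = 0.011), and HXT7 at -2.02 (adjusted p = 0.0429) and HXT2 at -1.14 (adjusted p = 0.0477) were lower too, where 0.923% of protein-coding genes were. As deposited HXT7 was at -1.39 ± 0.415 (limma adjusted p = 0.0623) and HXT2 at -0.52 ± 0.257 (adjusted p = 0.212). HXT7 passed as deposited with voom (-1.57, adjusted p = 0.0185). HXT1 went the opposite way without passing, by 0.55 ± 0.165 as deposited (limma adjusted p = 0.064), and by -0.080 relative to the median. HXT3 and RGT2 were near 0 as deposited, at -0.070 and 0.057, and had relative values of -0.70 and -0.57. SNF3 and MTH1 had 0.93 ± 0.461 and 0.73 ± 0.367 as deposited and 0.30 and 0.11 relative to the median, and HXT6 had 0.26 ± 0.569 and -0.37, and none of these passed. The median of the 9 members was 0.057, against 0.51 over protein-coding genes. The HXT4 call ended without the first upf1 DMSO library, at -1.42 (adjusted p = 0.0753), and its relative call without either upf1 DMSO library. The relative call of HXT7 ended without either library of WT CHX, upf1 DMSO or upf1 CHX, and that of HXT2 without any library other than the second of WT DMSO.

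With CHX present, the libraries of upf1 lay below those of WT for HXT1, HXT2, HXT3, HXT4 and HXT7, but no difference passed. HXT2 was at -1.02 ± 0.257 (limma adjusted p = 0.131), HXT4 at -1.02 ± 0.256 (adjusted p = 0.129), HXT3 at -0.64 ± 0.191 (adjusted p = 0.138) and HXT1 at -0.45 ± 0.165 (adjusted p = 0.171). These 4 had an unadjusted p under 0.05, and 0 of 9 members were called by limma, where 0.0543% of protein-coding genes were higher and 0% lower. By voom on the recovered reads 3 members were lower, HXT2 (-1.02, adjusted p = 0.0211), HXT4 (-1.09, adjusted p = 0.0269) and HXT3 (-0.64, adjusted p = 0.0362), where 0.543% of protein-coding genes were. Relative to the protein-coding median HXT4 was at -1.71, HXT2 at -1.70, HXT3 at -1.32 and HXT1 at -1.13, with adjusted p of 0.0555, 0.0535, 0.0582 and 0.0652, and lower calls covered 0.163% of protein-coding genes. Leaving out either WT DMSO library brought HXT2, HXT3 and HXT4 past the threshold on that relative scale. RGT2 was at 0.58 ± 0.301 as deposited and -0.10 relative to the median. MTH1 was at 0.76 ± 0.367 as deposited and 0.072 relative to the median. SNF3, HXT6 and HXT7 were at -0.31, 0.0019 and -0.41 as deposited and at -0.99, -0.68 and -1.10 relative to the median. The median of the 9 members was -0.41, against 0.58 over protein-coding genes.

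Whether CHX acted differently in the genotypes was asked with the interaction term. No member was called by limma or by voom, and 1 had an unadjusted p under 0.05. That member was HXT1, whose CHX change was smaller in upf1 by -0.996 ± 0.233 (limma adjusted p = 0.253) and by -1.05 relative to the median. RGT2 had an interaction of 0.53 ± 0.426 and SNF3 one of -1.23 ± 0.652 (limma adjusted p = 0.754 and 0.636). The comparisons share libraries, so the changes of a gene in them are not independent of each other.

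**Figure D4:**
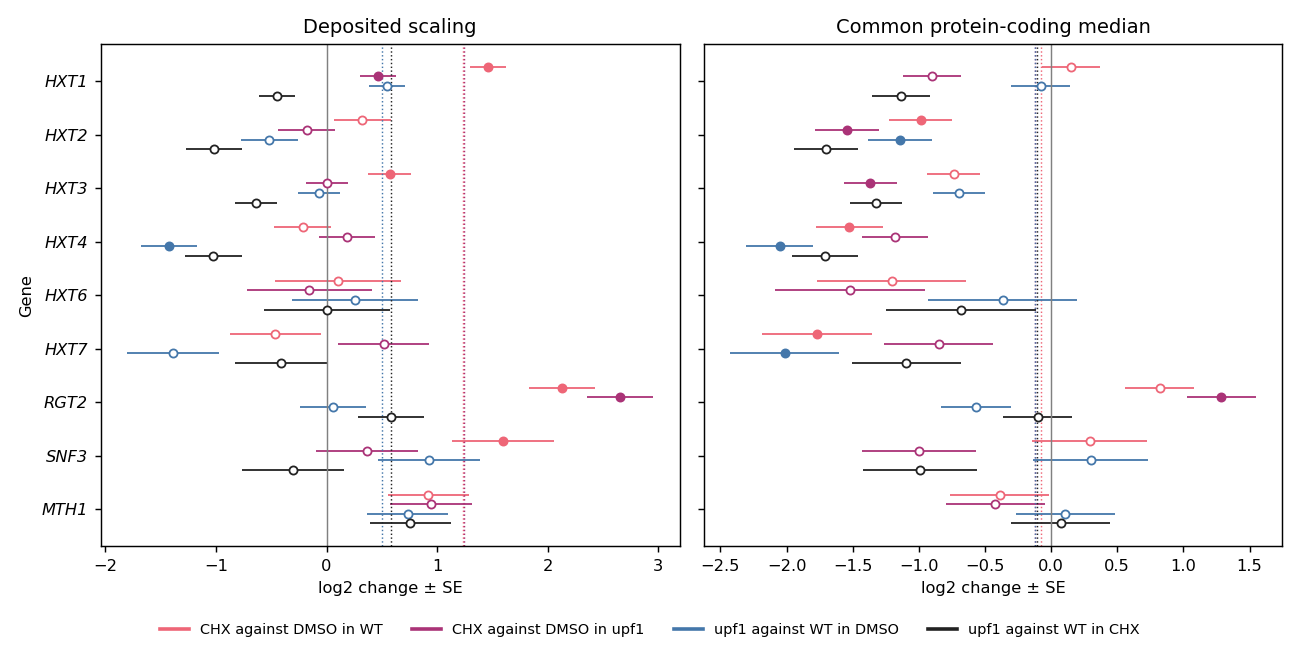
Log2 change ± SE of the 9 tested genes in 4 comparisons (colours), as deposited on the left and relative to a common protein-coding median on the right; filled points passed the limma threshold of 0.05 after adjustment, and dotted lines are the medians of all protein-coding genes. RGT2 with CHX lies to the right of those medians in both panels, HXT3 with CHX in WT is at 0.57 on the left and at -0.74 on the right, and HXT4 in upf1 against WT in DMSO lies to the left of 0 in both.

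The other genes of the circuit were read from lists of its parts. With CHX 30 of 43 tested were higher as deposited in WT and 35 in upf1, where 68.4% and 73.9% of protein-coding genes were, and the counts for each list stand against those shares. Relative to the protein-coding median, limma called 0 of the 43 higher in either genotype, with 2 at an unadjusted p under 0.05 in WT and 2 in upf1. It called 1 lower in WT and 0 in upf1, where 3.94% and 1.77% of protein-coding genes were lower. At an unadjusted p under 0.05, 5 were lower in WT and 4 in upf1. Of 11 further transporter genes, HXT16 had no row under that name and 6 passed the filter. Of these, 4 were higher with CHX in WT and 3 in upf1. Sequences shared among these further genes were not examined, so their calls may not be separate. HXT10 had 0 reads in both WT DMSO libraries and 10 and 11 in those of WT CHX, and it passed in both genotypes as deposited (limma adjusted p = 0.0042 in WT) but not relative to the median (0.65 in WT, adjusted p = 0.277). HXT11 had 1 and 0 reads in WT DMSO against 10 and 16 in WT CHX. HXT10, HXT11 and HXT12 had a mean of at most 0.754 in either DMSO group. GAL2 had 1.62 in WT DMSO and 0.830 in upf1 DMSO, and ELM1, of the glucose repression list, 1.23 and 1.79. These genes passed the filter of 2 through the CHX groups and had to differ from DMSO. HXT8, HXT9 and TOS3 had means of 0.737, 0.823 and 0.814 in WT DMSO. They passed through the other groups and had to differ from WT DMSO to some degree.

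Of 7 genes of glucose induction, the casein kinases Yck1 and Yck2, Std1, Grr1, Rgt1 and its corepressor pair, 5 rose as deposited with CHX in WT and 7 in upf1. CYC8 rose by 1.89 ± 0.296 and TUP1 by 1.42 ± 0.229 in WT, both subunits of the general corepressor that Rgt1 recruits (limma adjusted p = 0.00167 and 0.00185). Relative to the median they were at 0.59 and 0.11 and did not pass. Between the genotypes in DMSO, CYC8 was at 0.73 ± 0.296 (limma adjusted p = 0.141). TUP1 with CHX in WT had a value of -0.010 with quantile normalization. The median over the list was 0.97 in WT as deposited, against 1.23 over protein-coding genes, and -0.34 relative to the protein-coding median.

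Glucose repression was represented by 14 genes, among them the Snf1 kinase, its phosphatase and the Mig repressors. As deposited 8 of them rose with CHX in WT and 10 in upf1. SIP2, a subunit of the Snf1 kinase, rose by 1.71 ± 0.29 in WT and by 2.15 ± 0.29 in upf1 (limma adjusted p = 0.0022 and 0.00268), and its relative values of 0.40 and 0.78 did not pass (adjusted p = 0.425 and 0.224). GLC7, the catalytic subunit of the phosphatase that turns Snf1 off, was at 0.15 ± 0.257 in WT as deposited and lower relative to the protein-coding median, at -1.16 (limma adjusted p = 0.0195). In upf1 against WT in DMSO 13.1% of protein-coding genes were higher and 0.253% lower. MIG3, a relative of Mig1, was the 1 of the 14 genes called there, higher by 1.73 ± 0.38 (limma adjusted p = 0.0261). Its levels were 7.9 and 2.5 in WT DMSO and 18.6 and 21.9 in upf1 DMSO, its relative value was 1.10 and did not pass (adjusted p = 0.22), and leaving out any library other than the first of WT DMSO ended the call.

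Hexose kinases showed 1 call for genotype among the 4 genes, a lower one in DMSO, where 0.253% of protein-coding genes were lower. GLK1, glucokinase, fell by 0.89 ± 0.245 without UPF1 in DMSO, from 700 and 471 to 354 and 270 scaled reads per kb (limma adjusted p = 0.0492), and had a relative change of -1.51 (adjusted p = 0.0283). The deposited call ended without any library other than the second of WT DMSO. As deposited 3 of the 4 kinase genes rose with CHX in each genotype, HXK1 by 1.63 ± 0.331 and EMI2 by 1.64 ± 0.243 in WT (limma adjusted p = 0.00427 and 0.00139), while their relative values of 0.32 and 0.34 did not pass. Of 12 genes of glucose signalling through cAMP, 10 rose as deposited with CHX in WT and 12 in upf1. BCY1, the regulatory subunit of protein kinase A, rose by 1.90 ± 0.266 in WT (limma adjusted p = 0.00117), with a relative value of 0.60 that did not pass (adjusted p = 0.123). PDE1, a phosphodiesterase for cAMP, was higher in upf1 than in WT in DMSO by 1.41 ± 0.278 (limma adjusted p = 0.0186). It was the 1 gene of the list called there, where 13.1% of protein-coding genes were higher. Its relative value of 0.78 did not pass, and the call ended without the first WT DMSO library or either upf1 DMSO library.

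The genes whose pattern over the 8 libraries was most like that of a member were found by the root mean square difference of log2 values, each gene centred on its own mean. The neighbours of HXT4 were HXT2 (0.34) and HXT7 (0.35), and HXT4 was in turn the nearest gene to HXT7. HXT3 was second for HXT2 (0.24), after MIR1 (0.21). HXT1 was nearest to SYG1 (0.10), RGT2 to YGR127W (0.093), MTH1 to CRN1 (0.084) and HXT3 to MUP3 (0.11) and ACT1 (0.14). SNF3 had BCS1 and CUE2 at 0.21 each, and HXT6 had CUR1 at 0.29 and FBP1 at 0.34. HXT4 and HXT7 were thus the members farthest from their nearest gene.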

How the data were processed

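Terminator-digested total RNA of 8 yeast libraries was analysed. The authors deposited normalized densities (a signal per base) for each feature, with group columns that were not used. Per the submitters' processing notes, Trim Galore, HISAT2 2.2.0, featureCounts 2.0.0, DESeq2 and the R64 genome were used. All positive values were whole reads within 0.001 reads once each feature's length and each library's factor were recovered (100% of them). No spike-in rows were used. Log2(scaled reads per kb + 2) was tested with limma 3.58.1 in R 4.3.3, with a variance trend, over 10394 features with a mean of at least 2, 5527 of them protein-coding, ribosomal RNA left out. Each two-sided p was adjusted by Benjamini and Hochberg's method over every feature tested, with a threshold of 0.05. The fit was tested on simulated data with changes planted only in better-read features and no general shift. That test does not cover weakly read members or the general rise with CHX. The added 2 understates changes of weakly read genes. All 8 libraries shared 1 fit (4 residual and 3.60 prior degrees of freedom). The correlation of log values between replicates was 0.935 to 0.954. Depth sets the precision: 36 to 77 reads lie behind HXT5, HXT6, SNF3 and MTH1. The members and lists were chosen with earlier results of these data known. All members are named, with up to 3 genes of a list with the smallest p in a comparison. Of the 2 genes most like each tested member, at least the nearest is named. Alternatives were voom, other pseudocounts, no filter, protein-coding genes only, quantile and median scaling, a replicate block and leaving out each library.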

Additional observations from a re-analysis of the deposited data

How the results depend on the processing

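The leave-one-out and block fits on the median scale were chosen after seeing the data. With CHX in WT, 4 members were higher and 0 lower. Both the protein-coding median and quantile normalization gave 0 higher and 3 lower. Leaving out 1 library gave 2 to 5 higher and 0 to 1 lower. A gene is said to reverse where its sign changed and at least 1 of the 2 fits compared passed the threshold. On those scales (median, then quantile) HXT2 reversed to -0.99 and -0.85, HXT3 to -0.74 and -0.48 and GLC7 to -1.16 and -1.34. With quantile normalization SNF3 reversed to -0.064 and TUP1 to -0.010. Among the members, signs also changed with the median, without a pass in either fit, for HXT6 (-1.21) and MTH1 (-0.39). With CHX in upf1, 2 members were higher and 0 lower. The median gave 1 higher and 2 lower, quantile normalization 1 and 3, and leaving out 1 library 1 to 3 higher. HXT1 reversed to -0.90 and -0.67, HXT3 to -1.37 and -1.03 and GLC7 to -0.69 and -0.63. HXT4 reversed to -1.10 with quantile normalization and PDE1 to -0.048 with the median. Signs of members also changed with the median, without a pass in either fit, for HXT4 (-1.18), HXT7 (-0.85), SNF3 (-0.998) and MTH1 (-0.42). These scales take the general rise of protein-coding genes off by construction. In upf1 against WT in DMSO, 1 member was lower, against 3 with the median, 2 with quantile normalization, 2 with protein-coding genes only and 2 with voom, and 0 to 2 without 1 library. In CHX 0 were lower, against 3 by voom. Relative to the median, leaving out 1 library gave, with CHX in WT, 0 to 1 higher and 0 to 4 lower (3 with all libraries), with CHX in upf1, 0 to 1 higher and 0 to 3 lower, in upf1 against WT 0 to 4 lower in DMSO and 0 to 3 in CHX. The interaction gave 0 calls throughout. No pairing by replicate number was seen: deviations of same-numbered libraries correlated at -0.044 to 0.118. These deviations also carry counting error, so they cannot exclude that same-numbered libraries shared a batch. A replicate block gave 2 lower members in upf1 against WT in DMSO, and it gave 0 in place of 1 higher relative to the median with CHX in upf1. The causes of the other differences were not tested. HXT6 and HXT7 summed held 1.99%, 0.898%, 0.898% and 1.09% of the transporter density in WT DMSO, WT CHX, upf1 DMSO and upf1 CHX. Few reads limit HXT5, HXT6, SNF3 and MTH1.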
